A study of Homo sapiens with 6 samples.

Results

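The genes described here encode the actin cytoskeleton of a migrating T cell and the proteins that steer it. They were given as a list of 50 gene symbols, from actin itself to the GTPases and kinases that control it. In the deposited table, 45 of the 50 had a probe set with that symbol in the platform annotation, out of 17709 probe sets with a symbol and 21448 in all. None of the 45 had more than 1 probe set. ACTR2, ARPC3, PAK1, CORO1A and FLNA had no probe set named here and have no values below. All 45 lay above the limit for dim probe sets (a mean log2 signal of 4.44, the 25th percentile), so all 45 were among the 16086 probe sets tested.

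The 6 samples came from Jurkat, a human cell line of T-cell acute leukaemia (T-ALL) origin, and each was hybridised to its own Affymetrix array. The untreated group (n = 3) and the CXCL12 group (n = 3) were both grown with 10% serum and both starved of serum for 90 min. The CXCL12 group then received the chemokine at 100 ng/ml for 15 min, and the question set by the series was how expression differs after that stimulus. The titles call the samples biological replicates without naming separate cultures, so the p-values reflect only how far these samples varied, and part of that variation may be technical. Of 12 T-cell marker genes, 11 had a named probe set, and all 11 (CD3D, CD3E, CD3G, CD247, CD2, CD5, CD7, CD28, LCK, ZAP70 and LAT) lay above the dim limit. Above it too lay 17 of the 25 markers of other cell types with a named probe set. Lying above the limit therefore does not show cell type.

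CXCL12 binds CXCR4, a G protein-coupled receptor, and T cells that sense it polarise, extend a leading edge and crawl. The leading edge grows as Rac and CDC42 activate WASP-family proteins, which switch on the Arp2/3 complex to branch new actin filaments, while cofilin severs old ones. At the rear, RHOA and its ROCK kinases drive contraction by non-muscle myosin II, and ezrin, radixin and moesin tie filaments to the membrane. Most of this control acts on existing proteins, by GTP loading and phosphorylation, which an expression array does not measure.

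No member passed the adjusted threshold between CXCL12 and untreated cells: 0 of 45 had a limma adjusted p under 0.05, against 0.0124% of all probe sets tested (2 of 16086, those of EGR1 and CD69). The lowest adjusted p among the members was 0.828. At an unadjusted limma p under 0.05 there were 5 members, 11.1% of the 45, against 4.73% of all probe sets tested. Of these 5, LIMA1 was higher with CXCL12 (the background in that direction was 2.72%), and CDC42EP3, ROCK1, WASL and RDX were lower (background 2.01%). The members were listed with earlier results of these data known, LIMA1 and CDC42EP3 among them, so this share is a description and no test of the list. In bulk RNA, fewer cells making a transcript and less transcript per cell cannot be told apart.

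The unadjusted intervals bounded the change in signal for most members, as for most probe sets tested. The 95% interval of 40 members (88.9%) lay within a 1.5-fold change either way, against 89.9% of all probe sets tested. The 5 members whose intervals reached past 1.5-fold were the same LIMA1, CDC42EP3, ROCK1, WASL and RDX. The median half-width of an interval was 0.28 on the log2 scale, and the median change over the members was -0.04 (quartiles -0.11 and 0.0025), against 0.0023 over all probe sets tested. A positive change was found for 13 members (28.9%), against 50.7% of all probe sets tested, and a negative one for 32. The split was 18 positive and 27 negative after quantile normalization again, 19 and 26 after cyclic loess, and 11 and 34 after median centring. Positive changes over all probe sets in those fits were 50.2%, 49.9% and 44.7%, in the same order.

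**Figure D1:**
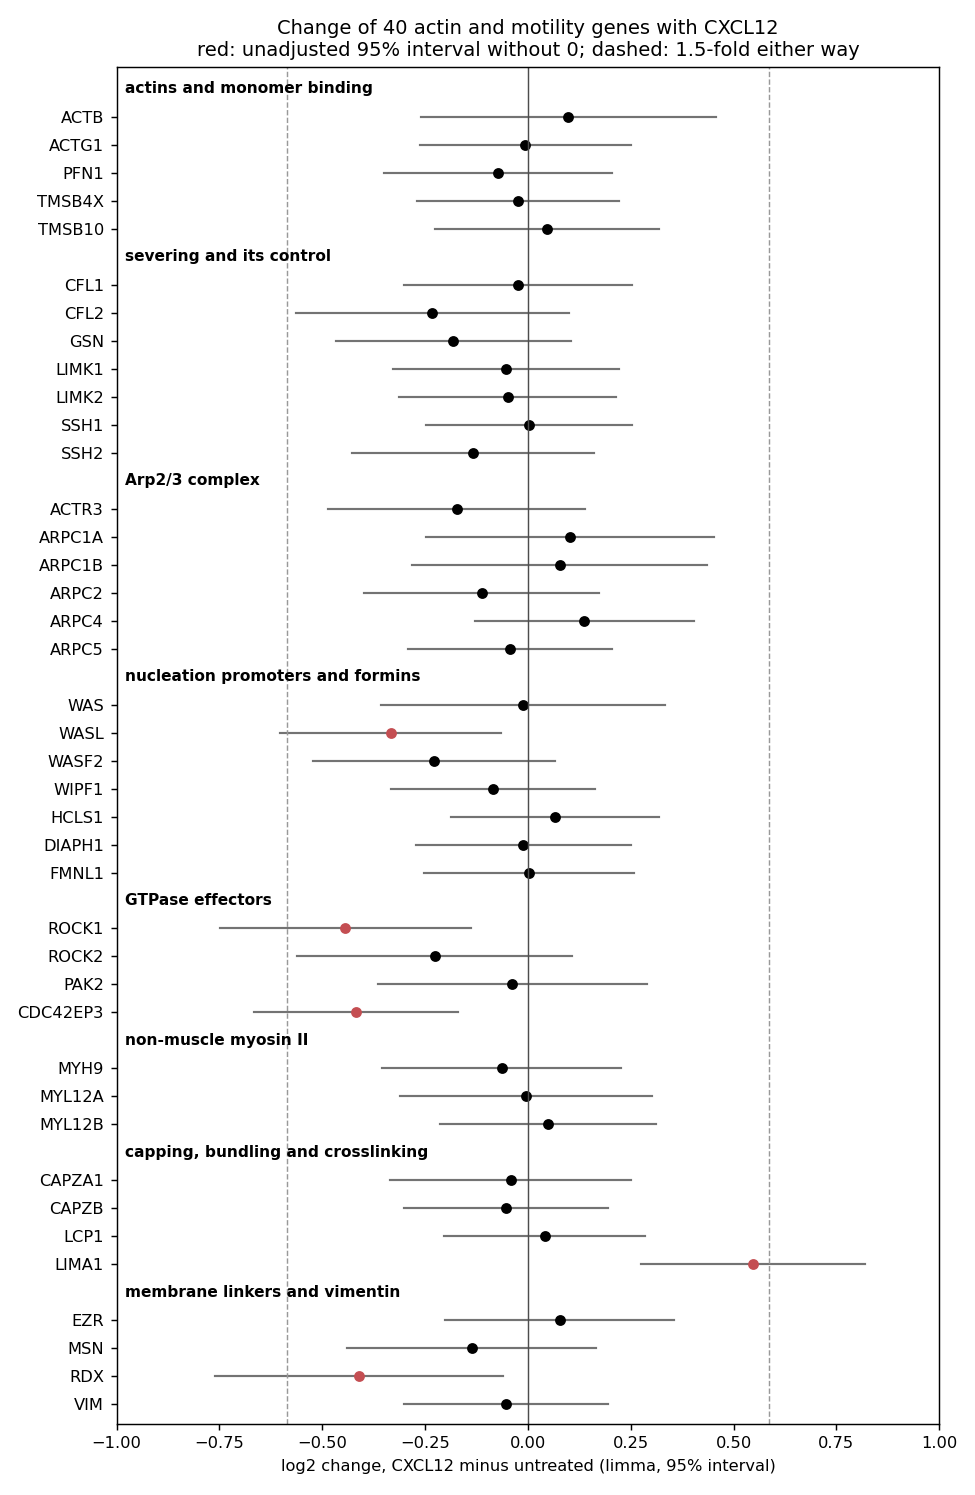
Log2 change with CXCL12 (x axis, CXCL12 minus untreated, n = 3 arrays each) for 40 of the measured actin and motility genes, grouped by role; bars are limma 95% intervals and dashed lines mark a 1.5-fold change. Red points are the 5 genes whose unadjusted interval leaves out 0 (LIMA1 to the right, WASL, ROCK1, CDC42EP3 and RDX to the left), and none of the 40 passed after adjustment.

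Actin and the proteins that hold its monomers showed small changes. ACTB, cytoplasmic beta-actin, had log2 signals of 10.21, 10.89 and 10.75 in untreated replicates 1, 2 and 3 and of 10.81, 10.66 and 10.67 in CXCL12 replicates 1, 2 and 3. The CXCL12 arrays all lay inside the untreated range, whose low end was untreated replicate 1. The change was 0.10 (SE 0.16, 95% interval -0.26 to 0.46, limma adjusted p = 0.996), and -0.10 without that array. ACTG1, the gamma-actin that differs from beta-actin at few residues, had 12.40, 12.55 and 12.54 in untreated cells and 12.54, 12.40 and 12.54 with CXCL12, a change of -0.0060 (95% interval -0.26 to 0.25). The groups overlapped, and the interval bounds the ACTG1 ratio between 0.833 and 1.19.

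The thymosins bind actin monomers and keep them in reserve. TMSB4X had 12.29, 12.19 and 12.24 untreated, against 12.22, 12.21 and 12.24 with CXCL12. Arrays are listed in replicate order here and below. All 3 CXCL12 values lay inside the untreated range, with a change of -0.02 (95% interval -0.27 to 0.22). TMSB10 had 11.33, 11.49 and 11.62 in untreated cells and 11.61, 11.52 and 11.44 with CXCL12, also overlapping, with a change of 0.05. PFN1, profilin, which loads monomers onto growing filaments, had a change of -0.07 (95% interval -0.35 to 0.20). Actins and thymosins have near-identical relatives and processed pseudogenes, and whether probes are shared among them was not examined.

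Promoter sequence was a feature that the list did not use. The CArG box is the binding motif of SRF, the serum response factor, whose co-activators MRTFA and MRTFB bind actin monomers. It is known from both immediate early genes and cytoskeletal genes. RefSeq promoter windows (GRCh38.p14, 250 bases before to 50 after the annotated start, 74 windows) were found for 45 of the 50 listed genes; ACTB, ARPC1B, WASF2, RAC1 and RAC2 had no entry. The box was found in the windows of 3 of these 45 genes (6.67%), ACTG1, ROCK2 and FLNA, against 1.6% of the 27305 genes in the table. Counted by window, the shares were 4.05% of the 74 windows and 1.29% of all 35116. The difference was not tested. EGR1, the gene with the lowest p in the series, has 2 boxes in its window. The 3 windows with array values are shown to set the ACTG1 and ROCK2 boxes beside those of EGR1, with the boxes in capitals.
ACTG1: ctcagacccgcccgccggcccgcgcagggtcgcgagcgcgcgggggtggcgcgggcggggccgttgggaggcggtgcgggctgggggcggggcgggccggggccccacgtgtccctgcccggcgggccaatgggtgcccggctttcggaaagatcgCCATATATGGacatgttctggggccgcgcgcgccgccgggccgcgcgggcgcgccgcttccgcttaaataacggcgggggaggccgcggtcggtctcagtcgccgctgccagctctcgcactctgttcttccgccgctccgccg
ROCK2: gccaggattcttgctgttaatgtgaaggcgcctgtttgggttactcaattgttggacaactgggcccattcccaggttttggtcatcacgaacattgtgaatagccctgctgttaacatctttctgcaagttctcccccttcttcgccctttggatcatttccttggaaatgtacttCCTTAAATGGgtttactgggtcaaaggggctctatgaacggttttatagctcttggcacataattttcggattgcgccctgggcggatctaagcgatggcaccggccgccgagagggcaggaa
EGR1: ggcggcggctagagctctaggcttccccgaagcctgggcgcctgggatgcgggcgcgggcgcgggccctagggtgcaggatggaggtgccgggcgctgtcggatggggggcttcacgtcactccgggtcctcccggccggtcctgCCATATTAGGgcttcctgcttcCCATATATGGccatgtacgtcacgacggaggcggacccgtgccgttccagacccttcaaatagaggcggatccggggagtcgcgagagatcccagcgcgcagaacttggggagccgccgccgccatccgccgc
These are chr17:81512750-81513049 on the minus strand for ACTG1, chr2:11345388-11345687 on the minus strand for ROCK2, and chr5:138465229-138465528 on the plus strand for EGR1. The ROCK2 box lies in 1 of its 2 windows.

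The ACTG1 box, CCATATATGG, has the same letters as the EGR1 box nearer the start. It spans 94 to 85 bases upstream of the annotated start in ACTG1 and 83 to 74 bases upstream in EGR1. The ROCK2 box, CCTTAAATGG, spans 73 to 64 bases upstream. EGR1, an immediate early gene for a zinc-finger transcription factor, had 5.94, 5.91 and 6.12 untreated, against 8.13, 7.80 and 7.98 with CXCL12, and rose 3.96-fold (log2 change 1.98, SE 0.13, limma adjusted p = 4.52e-05). Beside that, ACTG1 had its change of -0.0060, and ROCK2 had -0.23 (95% interval -0.56 to 0.11). A match is a description of letters and not evidence of binding. The other motifs searched, on both strands, were TATAAA, found for 4 of the 45 genes (GSN, LCP1, RHOA and ROCK2; 8.89% against 14.0% of all genes), and GCGTGGGCG, the EGR1 binding motif, found for 0 of the 45 (0.96% of all genes).

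Cofilin severs and disassembles aged filaments. CFL1, the non-muscle cofilin, had 11.00, 11.08 and 11.20 untreated, against 11.25, 11.00 and 10.96 with CXCL12. The groups overlapped, with a change of -0.02 (95% interval -0.30 to 0.25). CFL2, known as the muscle cofilin, had the smallest p of this role: 6.41, 5.94 and 5.93 in untreated cells and 5.98, 5.91 and 5.69 with CXCL12. Untreated replicate 1 stood above the rest, and the change of -0.23 (SE 0.15, 95% interval -0.56 to 0.10, limma adjusted p = 0.996) was -0.07 without it. LIMK1 and LIMK2, the kinases that inactivate cofilin, had changes of -0.05 each, and SSH1 and SSH2, the slingshot phosphatases that reactivate it, had 0.0025 and -0.13, the latter -0.00875 without untreated replicate 1. GSN, gelsolin, a calcium-dependent severing protein, had -0.18 (95% interval -0.47 to 0.10). All 7 intervals lay within a 1.5-fold change, as did 89.9% over all probe sets tested.

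The Arp2/3 complex, which branches filaments, was measured through 6 of its 8 listed genes, 3 with a positive and 3 with a negative change. ACTR3, an actin-related core subunit, had the smallest p of them, with 10.84, 10.40 and 10.70 untreated, against 10.36, 10.65 and 10.41 with CXCL12. The groups overlapped, and the change was -0.17 (SE 0.14, 95% interval -0.49 to 0.14, limma adjusted p = 0.996). Leaving out untreated replicate 1 brought the ACTR3 change to -0.08, and leaving out untreated replicate 2 brought it to -0.30. The other subunits were ARPC4 (0.14), ARPC1A (0.10), ARPC1B (0.08), ARPC2 (-0.11) and ARPC5 (-0.04). ARPC1A and ARPC1B are alternative forms of 1 subunit. ARPC1A spread most with CXCL12, at 8.80, 8.31 and 8.89, while ARPC1B spread most in untreated cells, at 9.43, 10.14 and 9.80. Each measured complex gene had an interval within a 1.5-fold change, as had 89.9% of all probe sets tested.

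Activators of Arp2/3 and the formins, which build unbranched filaments, made up the next 7 genes. WASL, which encodes N-WASP, the CDC42-responsive relative of the Wiskott-Aldrich protein, had 7.44, 7.23 and 7.18 in untreated cells and 6.87, 6.95 and 7.04 with CXCL12. Every CXCL12 array lay below every untreated array. The change was -0.33, a ratio of 0.658 to 0.956 by its 95% interval (SE 0.12, limma adjusted p = 0.996), and -0.26 without untreated replicate 1, where its unadjusted p was no longer under 0.05. WASF2, a WAVE protein that acts downstream of Rac, had 9.06, 8.70 and 8.76 untreated, against 8.61, 8.74 and 8.48 with CXCL12. These overlapped, with a change of -0.23 (95% interval -0.52 to 0.07) that was -0.12 without untreated replicate 1.

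WAS, the Wiskott-Aldrich protein of blood cells, had a change of -0.01 (95% interval -0.36 to 0.33). WIPF1, which stabilises that protein, had a change of -0.08, and its CXCL12 arrays (8.30, 8.32 and 8.21) lay just below its untreated arrays (8.41, 8.35 and 8.33). HCLS1, the haematopoietic relative of cortactin, had 0.07. The formins DIAPH1 and FMNL1 had -0.01 (95% interval -0.27 to 0.25) and 0.0024 (95% interval -0.25 to 0.26). WASL was thus the 1 gene of this role whose interval reached past a 1.5-fold change.

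The effectors of small GTPases were measured through 4 genes, with changes between -0.44 and -0.04. CDC42EP3 and ROCK1 had an unadjusted p under 0.05 in the lower direction, as had 2.01% of all probe sets tested, and so small a group supports no statement about the role. CDC42EP3, also called BORG2, a CDC42-binding protein that organises septins and actin, had 5.32, 5.25 and 5.29 untreated, against 4.81, 4.94 and 4.87 with CXCL12. Each group was tight (SD 0.035 and 0.066) and they did not overlap. The change of -0.42 (1.34-fold, SE 0.11, 95% interval -0.67 to -0.17) did not pass after adjustment (limma adjusted p = 0.927). Its signal lay near the dim limit of 4.44, and the stricter filter on dim probe sets, at 50%, removed it.

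ROCK1, a RHOA-activated kinase that promotes myosin contraction, had 8.11, 7.65 and 7.76 in untreated cells and 7.40, 7.48 and 7.31 with CXCL12. The groups did not overlap, and untreated replicate 1 was the highest array. The change was -0.44 (1.36-fold, SE 0.14, 95% interval -0.75 to -0.14, limma adjusted p = 0.996), and -0.31 without that array. ROCK2, its close relative, had 6.50, 5.98 and 6.05 untreated, against 5.89, 6.12 and 5.84 with CXCL12, again with untreated replicate 1 at the top. Its groups overlapped, and its change of -0.23 was -0.07 without that array. PAK2, a kinase activated by Rac and CDC42, had -0.04 (95% interval -0.36 to 0.29).

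Non-muscle myosin II, the motor that ROCK kinases regulate, had small changes in all 3 of its listed genes. MYH9, a heavy chain gene, had 9.11, 9.29 and 9.23 in untreated cells and 8.98, 9.37 and 9.09 with CXCL12, a change of -0.06 (SE 0.13, 95% interval -0.35 to 0.23, limma adjusted p = 0.996). Its CXCL12 arrays spread to both sides of the untreated ones. The regulatory light chain genes MYL12A and MYL12B encode near-identical proteins. MYL12A had 10.21, 10.29 and 10.62 untreated, against 10.52, 10.32 and 10.26 with CXCL12, a change of -0.00535. MYL12B had 10.85, 11.03 and 10.97 in untreated cells and 11.11, 10.90 and 10.99 with CXCL12, a change of 0.05. Both overlapped between groups. Of the wider list described below, MYH10, another heavy chain gene, had 0.21 (95% interval -0.07 to 0.49). MYL6, another light chain gene of that list, had 0.02, and each of these also overlapped.

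Capping, bundling and crosslinking genes included the member with the largest change. LIMA1 encodes EPLIN, a LIM-domain protein that bundles filaments and slows their depolymerisation and branching. Its log2 signals were 9.06, 8.78 and 8.79 untreated, against 9.36, 9.46 and 9.45 with CXCL12. Every CXCL12 array lay above every untreated array, by at least the gap between 9.36 and 9.06. The change was 0.55 (1.46-fold, SE 0.12, 95% interval 0.28 to 0.82), a ratio of 1.21 to 1.76, and did not pass over all probe sets (limma adjusted p = 0.828). Leaving out single arrays gave LIMA1 changes from 0.50 to 0.64, the latter without untreated replicate 1. Its adjusted p was lowest with array weights (0.234) and highest without CXCL12 replicate 3 (0.99998) among the 14 alternatives.

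The other genes of this role had smaller changes. LCP1, L-plastin, the leukocyte bundling protein, had a mean log2 signal of 11.98 ± 0.015 without and 12.02 ± 0.040 with CXCL12 (SD, n = 3 per group). Its arrays did not overlap, and the change was 0.04 (95% interval -0.20 to 0.29). CAPZA1 and CAPZB, the subunits that cap filament ends, had -0.04 and -0.05.

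Among the membrane linkers, RDX, radixin, had 7.41, 6.77 and 6.85 in untreated cells and 6.55, 6.58 and 6.66 with CXCL12. Groups did not overlap, but untreated replicate 1 stood 0.59 above the mean of the other untreated arrays. The change of -0.41 (1.33-fold, SE 0.16, 95% interval -0.76 to -0.06, limma adjusted p = 0.996) was -0.21 without that array. Its relatives EZR, ezrin, and MSN, moesin, had 0.08 (95% interval -0.20 to 0.36) and -0.14 (95% interval -0.44 to 0.17). The MSN change was -0.02 without CXCL12 replicate 1 and -0.24 without CXCL12 replicate 2. VIM, the intermediate filament protein vimentin, had -0.05.

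**Figure D2:**
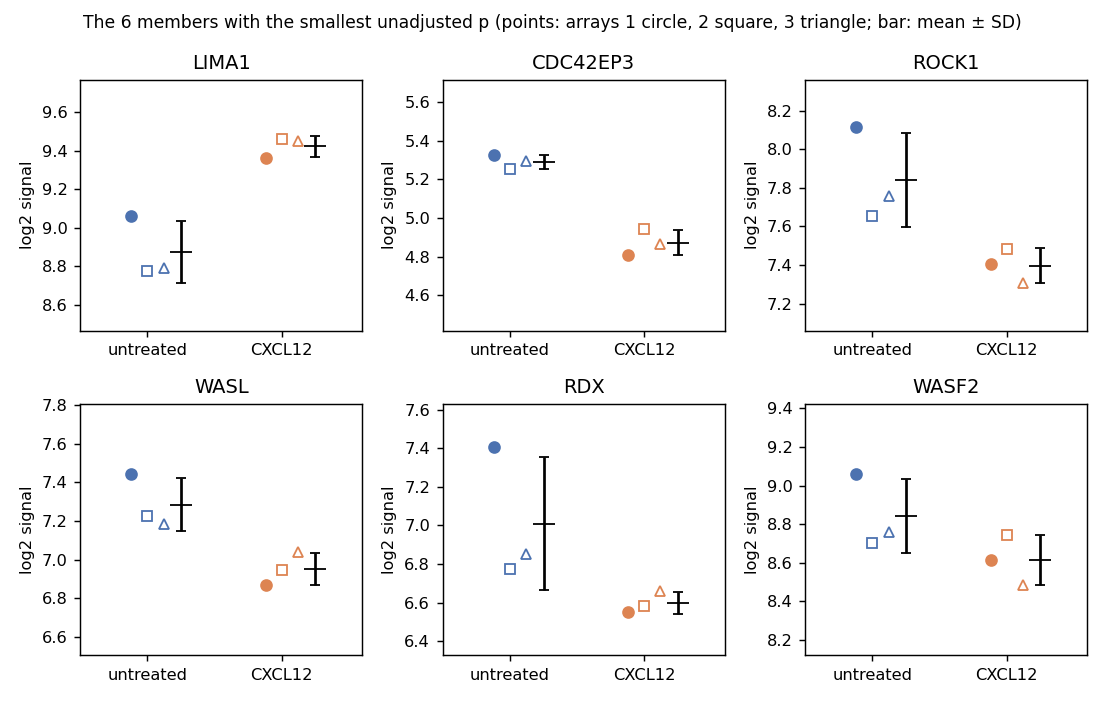
Log2 signal (y axis) in each untreated and CXCL12 array for the 6 members with the smallest unadjusted p; symbols mark replicates 1 to 3 and bars the mean ± SD (n = 3). LIMA1, CDC42EP3, ROCK1, WASL and RDX do not overlap between groups, WASF2 does, and untreated replicate 1 is the highest untreated array in all 6 panels.

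Across all members, 7 (15.6%) had no overlap between the CXCL12 and untreated arrays, against 9.54% of all probe sets tested. LIMA1 and LCP1 were above (background 5.05%), and WASL, WIPF1, ROCK1, CDC42EP3 and RDX below (background 4.48%). Since LIMA1 and CDC42EP3 were listed with earlier results of these data known, this share too is a description and no test of the list. The median residual SD between replicates was 0.13 over the members and 0.16 over all probe sets tested, a difference that was not tested.

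**Figure D3:**
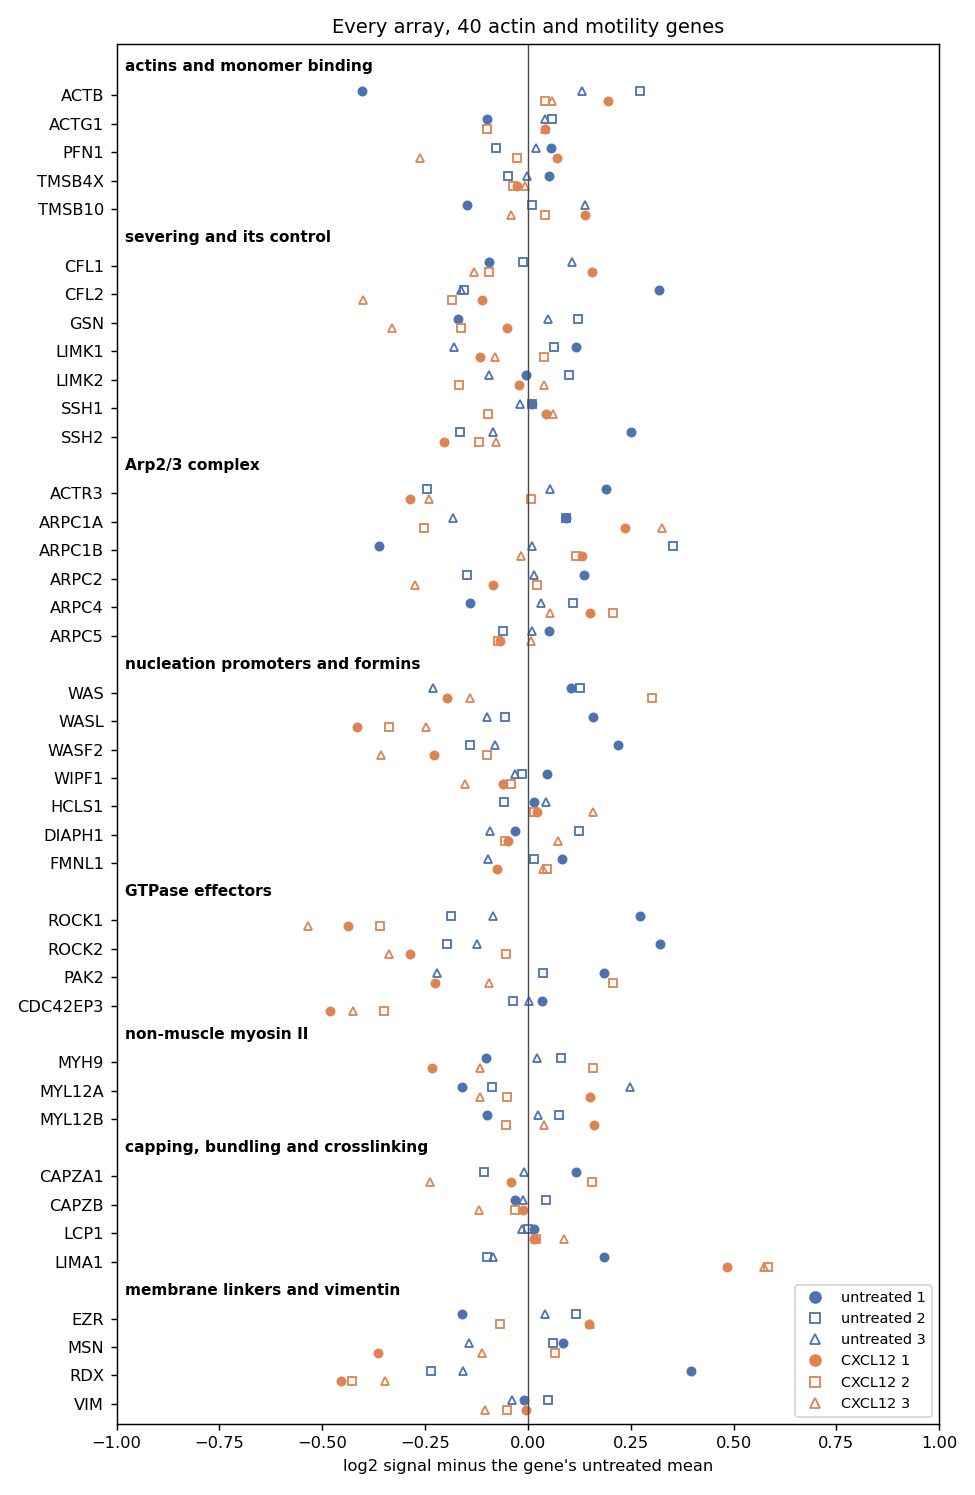
Log2 signal in every array minus the gene's untreated mean (x axis) for 40 of the measured genes by role; blue marks untreated and orange CXCL12 arrays, and symbols mark replicates 1 to 3. For 33 genes the colours overlap, and untreated replicate 1 (filled blue) lies apart for ACTB, RDX, ROCK1, ROCK2 and CFL2.

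Untreated replicate 1 stood apart over the whole table, with a mean correlation of 0.982 with the other arrays, against 0.987 to 0.989 for those. It moved with several results on these genes. It differed by over 0.3 from the mean of untreated replicates 2 and 3 for 8 members (17.8%), against 28.2% of all probe sets tested. RDX (0.59), ROCK2 (0.48), CFL2 (0.48), ROCK1 (0.41), SSH2 (0.37) and WASF2 (0.33) were higher in it, and ACTB (-0.60) and ARPC1B (-0.54) lower. Without it, the members with an unadjusted p under 0.05 were 3 in place of 5, LIMA1, CDC42EP3 and ROCK1, against 4.96% of all probe sets in that fit. The same 3 were found without CXCL12 replicate 1 (3.47% of all probe sets), and without CXCL12 replicate 2 there were 4, RDX being lost (6.27% of all probe sets). CDC42EP3 had -0.40 without untreated replicate 1, close to its value with all arrays.

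**Figure D4:**
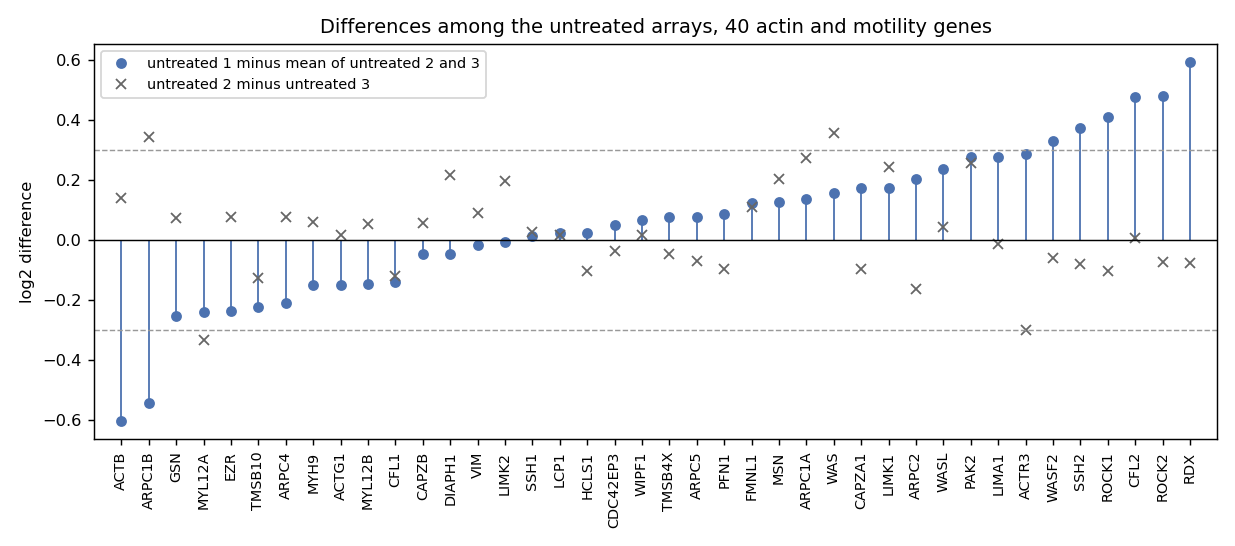
Log2 difference (y axis) of untreated replicate 1 from the mean of untreated replicates 2 and 3 (blue), and of untreated replicate 2 from 3 (grey crosses), for 40 of the measured genes ordered by the former. The blue points run from -0.60 for ACTB to 0.59 for RDX, and dashed lines mark 0.3 either way.

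A wider list of 82 other genes of actin control gave the same count of calls. Of these, 73 had a named probe set, 71 were tested and 2 were dim. None passed after adjustment (0 of 71 by limma), and 2 had an unadjusted p under 0.05 (2.82%, against 4.73% of all probe sets tested). Changes were positive for 38 and negative for 33, with a median of 0.01. TIAM1, a Rac activator, had a change of -0.43 (95% interval -0.78 to -0.08), with CXCL12 arrays at 6.19, 5.61 and 5.89 and untreated arrays at 6.22, 6.55 and 6.19. CAPZA2, another capping subunit, had 0.30 (95% interval 0.0021 to 0.60), MRTFB, the SRF co-activator, -0.29 (95% interval -0.59 to 0.0098), and PFN2, a profilin, 0.25 (95% interval -0.02 to 0.53). SRF itself, named here because of the CArG boxes, had 0.22 (95% interval -0.11 to 0.55).

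The receptor CXCR4 had a change of -0.37 (95% interval -0.69 to -0.06, limma adjusted p = 0.996), from 11.17, 10.88 and 10.73 in untreated to 10.43, 10.75 and 10.48 in CXCL12 arrays, which overlapped. CD69, an early activation receptor of lymphocytes, rose 2.53-fold (log2 change 1.34, SE 0.17, limma adjusted p = 0.0394). That call was lost in 7 of the 14 alternatives, with an adjusted p of up to 0.524 (without CXCL12 replicate 3). It was lost without untreated replicate 2 (0.0683), without CXCL12 replicate 1 (0.343) and without CXCL12 replicate 2 (0.0697), and narrowly with no dim filter (0.0547), median centring (0.0501) and cyclic loess (0.0503). EGR1 passed in all 14. Of 28 markers of other cell types, 25 had a named probe set, 8 were dim and none passed. The summed log2 signals of the 4 endothelial markers were 21.57 to 22.03 in untreated and 22.04 to 22.40 in CXCL12 arrays, without overlap. Among all single probe sets tested, 9.54% had no overlap. KDR was dim in both groups. PECAM1, VWF and CDH5 lay above the dim limit, with changes of 0.22, 0.10 and 0.03, and each overlapped between groups. The sums for the other 6 non-T-cell lists and for the T-cell list (104.4 to 105.0 in untreated and 104.2 to 105.2 in CXCL12 arrays) overlapped. The part of these markers in the results was not tested.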

How the data were processed

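The authors' deposited table holds log2 signals per probe set and array. The submitters' processing notes name RMA (robust multi-array averaging: background subtraction, normalization between arrays, probe summary) and the Transcriptome Analysis Console. For neither tool is a version, setting or genome build given in the sources used here. Probe-level data were not used here, so detection calls and scan batches were not examined, and levels of different probe sets were not compared. Symbols came from the platform annotation.

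All probe sets were fitted together with limma 3.58.1 in R 4.3.3 (lmFit, eBayes, two-sided, 6 arrays, no covariates) after leaving out those below the 25th percentile of the mean. P-values were adjusted over the 16086 left (Benjamini-Hochberg, 0.05). The fit was tested on simulated data in which the planted changes were larger than any member change here. That run therefore does not bear on changes of the members' size. The number of arrays limits the precision.

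The members and lists were chosen with earlier results of these data known. Values in every array are given for the member with the smallest unadjusted p in each of 9 roles (1 role is not reported here), for the 6 smallest overall and for 4 pairs of near-identical genes, and the 4 smallest of the wider list are named. The other members whose arrays are printed, and SRF, MYH10 and MYL6 of the wider list, were added after their values were seen. Alternatives were other filters, scalings, priors and weights, a replicate block, and leaving out each array. Protein sequences were not used here.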

Additional observations from a re-analysis of the deposited data

How the results depend on the processing

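The count of 0 members past the adjusted threshold held in all 14 alternatives run. Averaging the probe sets of a symbol gave no alternative, since no member had more than 1. The replicate block, which takes the replicate number as a factor, gave 0 members past the adjusted threshold and 2 probe sets in all. It gave 5 members with an unadjusted p under 0.05, against 4.02% of all probe sets in that fit, and changed no call. The labels state no pairing, and deviations of same-numbered arrays correlated at -0.19, -0.11 and 0.11. The count of 5 members with an unadjusted p under 0.05 lay between 3 and 5 in the fits without 1 array. The share of all probe sets in those fits lay between 3.39% and 6.27%. Under the stricter dim filter (lower 50% removed) the count was 4 of the 42 members tested, against 3.84% of all probe sets. The count of 2 probe sets past the adjusted threshold was 1 without a dim filter, 1 under cyclic loess, 1 under median centring, 3 under the stricter dim filter, 3 under the trended robust prior and 4 under array weights. It lay between 1 and 2 in the fits without 1 array. The members' median of -0.0416 was -0.0144 after quantile normalization again, -0.0226 after cyclic loess and -0.0630 after median centring. Over all probe sets the median was 0.00048, -0.00032 and -0.0191 in those fits, in the same order. The members' median lay between -0.0535 and -0.0293 in the fits without 1 array.

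Of the 45 members, 19 kept their sign in all 14 alternatives, LIMA1, ROCK1, WASL and RDX among them. CDC42EP3, CFL2 and ROCK2 kept theirs in the alternatives that tested them, the stricter dim filter having removed all 3. No change whose sign turned had passed the threshold, and the causes were not tested. Signs turned with quantile normalization again for ACTG1 (0.050), CFL1 (0.014), DIAPH1 (0.00143), RHOH (0.010) and MYL12A (0.022); with cyclic loess for ACTG1 (0.022), TMSB4X (0.00438), CFL1 (0.00227), DIAPH1 (0.00808), RHOH (0.000574) and MYL12A (0.018); with median centring for SSH1 (-0.019) and FMNL1 (-0.019); and with array weights for ARPC1B (-0.000534). In the fits without 1 array, the sign turned for 23 members, whose log2 changes had these ranges: ACTB from -0.104 to 0.233, ACTG1 from -0.056 to 0.041, PFN1 from -0.144 to 0.022, TMSB4X from -0.048 to 0.00224, TMSB10 from -0.028 to 0.116, CFL1 from -0.113 to 0.031, LIMK1 from -0.143 to 0.00502, LIMK2 from -0.097 to 0.00896, SSH1 from -0.027 to 0.053, ARPC1A from -0.00915 to 0.281, ARPC1B from -0.104 to 0.254, WAS from -0.169 to 0.080, DIAPH1 from -0.057 to 0.051, FMNL1 from -0.046 to 0.043, RAC2 from -0.017 to 0.098, CDC42 from -0.166 to 0.102, RHOH from -0.117 to 0.035, PAK2 from -0.160 to 0.056, MYH9 from -0.175 to 0.021, MYL12A from -0.086 to 0.119, MYL12B from -0.00757 to 0.099, CAPZA1 from -0.140 to 0.057 and EZR from -0.00248 to 0.150. For 20 of the members that kept their sign, the ranges were CFL2 from -0.314 to -0.074, GSN from -0.266 to -0.107, SSH2 from -0.216 to -0.00875, ACTR3 from -0.295 to -0.078, ARPC2 from -0.187 to -0.031, ARPC4 from 0.067 to 0.192, ARPC5 from -0.075 to -0.019, WASL from -0.384 to -0.255, WASF2 from -0.298 to -0.119, WIPF1 from -0.107 to -0.051, HCLS1 from 0.019 to 0.090, ROCK1 from -0.538 to -0.307, ROCK2 from -0.325 to -0.066, CDC42EP3 from -0.453 to -0.387, CAPZB from -0.075 to -0.022, LCP1 from 0.018 to 0.053, LIMA1 from 0.497 to 0.640, MSN from -0.238 to -0.023, RDX from -0.529 to -0.213 and VIM from -0.078 to -0.028. With 3 arrays a side, the unadjusted intervals had a median half-width of 0.28 over the members. A change smaller than the half-width of its own interval could not be told from 0. After adjustment, not even the largest member change (LIMA1, 0.55) passed.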
